A study of Mus musculus with 714 samples.

Results

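The epithelium of the adult mouse uterus was compared with that of the newborn, from counts of single cells summed by age. The whole table of genes was used, and genes above a minimum level were compared. The comparison holds 45 cells of postnatal day 56 (pnd56) and 83 plus 80 cells of postnatal day 0 (pnd0), the latter in a pair of title blocks described below, out of 714 cells in the series. Members were all cells labelled pnd56 or pnd0, less those with 100 or more counts of Hba-a1, a haemoglobin gene, or 3 or more counts of Upk3a, a gene of the bladder lining. This removed 10 newborn cells, 2 by Hba-a1 and 8 by Upk3a, and no adult cell. Both groups came from the uterus of ICR mice, an outbred strain, and had been sorted for CD326, the surface protein EpCAM that marks epithelial cells. No treatment, allele or transgene is named for either age, and the sources used here do not give the phase of the oestrous cycle of the adult animals. The RNA of each cell had been copied and read at its 3′ end by CEL-seq, and 5 ages were sampled in all, with pnd7, pnd14 and pnd28 between the ends compared here.

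Levels are counts summed over the cells of an age, per 1000000 counts of all genes (CPM). Animals, litters and pools are not named, so each age is 1 sample, no replicate check exists, and no p-value is given. The 95% interval behind each ratio is exact and covers counting error only. The newborn cells hold 549567 counts (median 3037 and highest 7917 per cell) and the adult cells 81894 (1670 and 4509), so 1 count is worth 1.82 CPM in the newborn and 12.2 CPM in the adult. Where an age had 0 counts, a floor of 3 counts, 5.46 CPM in the newborn and 36.6 CPM in the adult, gave a bound. A gene was compared where its mean over both ages was at least 50 CPM. The titles of the cells carry numbers, and cut into runs of 96 they place the newborn cells in blocks 1 and 2, of 83 and 80 cells, and all adult cells in block 8. The labels do not say what the blocks are, and age and block cannot be told apart.

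The uterine lining arises from the Mullerian duct. At birth it is a simple, unspecialised tube whose cells still take their identity from the tissue around them, and glands bud from it only in the following weeks. In the adult it is a secretory epithelium that oestrogen and progesterone reshape in every cycle: oestrogen, acting through the receptor encoded by Esr1, drives growth and the secretion of lactoferrin, complement and small proline-rich proteins into the lumen, and progesterone restrains this and prepares the lining for an embryo.

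Epithelial markers were counted in most cells of both ages. Krt18, a keratin of simple epithelia, was counted in 91.1% of adult and 98.8% of newborn cells, and Epcam, the gene of the sorted protein, in 53.3% and 52.1%. Markers of luminal epithelium, the surface layer, held 2.33% of adult counts and 0.0973% of newborn counts, and glandular markers 0.330% and 0.00473%. Both lists hold genes named below, so they describe the contrast and do not test it. Of 7 glandular markers with a row, 4 were at 0 in the adult cells, among them the protease genes Prss28 and Prss29. Of the 9 immune markers, Ptprc, the common leukocyte gene, had 0 adult counts and 1 newborn count, and the list took 0.0440% of adult and 0.00691% of newborn counts. Both immune markers compared, Csf1r and Laptm5, were at least 2-fold higher in the adult, with a median log2 ratio of 3.88. Stroma and fibroblast markers summed to 374 adult counts, 200 of them in 1 cell, which is 0.457% of adult counts. In the newborn they took 0.0251%, with at most 9 counts in any cell. Squamous and basal markers summed to 43 adult counts in 6 cells, 17 of them in 1 cell, and to 12 newborn counts. The 2 of these markers compared were at least 2-fold higher in the adult. Erythroid, mesothelial and urothelial markers took 0.0340%, 0.0166% and 0.0109% of newborn counts, and 0.00244%, 0.00488% and 0.00733% of adult counts.

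A pair of adult cells stood apart from the others. One, the deepest adult cell with 4509 counts, held 72 of the 78 adult counts of Col1a2, 54 of the 63 of Col3a1 and 24 of the 29 of Dcn, all genes of fibrous matrix, with 2 counts of Krt18 and 0 of Epcam. The other, with 1198 counts, held 52 of the 62 adult counts of Cd74 and 28 of the 39 of Vim, with 0 counts of Krt18 and of Epcam. Values that rest on these cells are set below beside those of an alternative that drops cells without Krt18 or with 5 or more counts of stroma, muscle, vessel and immune markers apart from Fbln1, and so leaves out 9 adult and 12 newborn cells. Fbln1 was set aside there because it was counted in 31 of the 45 adult cells, with at most 7 counts in any.

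Of the genes ranked first for a higher adult level, a group belongs to 1 family and 1 stretch of chromosome 3: the Sprr2 genes, which encode small proline-rich proteins. The promoters of Sprr2f and Sprr2b are shown with those of Prap1 and Ltf, 2 secreted products with the same direction, and of Stra6, the gene ranked first in the opposite direction. Each runs from 250 bases before the start of the gene to 50 after it, 5′ to 3′ on the gene's own strand, taken from RefSeq on build GRCm38.p6; all of them lie on the plus strand, and the files themselves name no coordinates. Capitals mark GGTCA or its complement TGACC, the half-site that oestrogen receptors can bind, and TATAAA, the TATA box, sought on both strands.
Sprr2f, chr3:92364937-92365236: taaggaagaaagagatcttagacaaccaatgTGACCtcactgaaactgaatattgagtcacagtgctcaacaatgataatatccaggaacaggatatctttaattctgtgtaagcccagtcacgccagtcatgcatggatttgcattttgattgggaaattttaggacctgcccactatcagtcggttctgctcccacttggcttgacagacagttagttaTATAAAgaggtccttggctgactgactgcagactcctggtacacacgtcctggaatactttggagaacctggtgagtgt
Sprr2b, chr3:92316455-92316754: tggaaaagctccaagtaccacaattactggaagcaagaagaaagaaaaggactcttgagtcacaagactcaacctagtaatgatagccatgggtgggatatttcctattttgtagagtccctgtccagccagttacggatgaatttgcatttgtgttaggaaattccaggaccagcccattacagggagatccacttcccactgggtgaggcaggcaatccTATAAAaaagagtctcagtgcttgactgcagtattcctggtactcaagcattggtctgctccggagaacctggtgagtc
Prap1, chr7:140093146-140093445: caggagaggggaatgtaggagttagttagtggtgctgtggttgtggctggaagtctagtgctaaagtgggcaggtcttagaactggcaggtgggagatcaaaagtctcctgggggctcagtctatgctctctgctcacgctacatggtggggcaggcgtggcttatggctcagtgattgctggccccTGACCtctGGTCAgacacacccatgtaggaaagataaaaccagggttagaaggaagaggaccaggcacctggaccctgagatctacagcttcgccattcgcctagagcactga
Ltf, chr9:111019042-111019341: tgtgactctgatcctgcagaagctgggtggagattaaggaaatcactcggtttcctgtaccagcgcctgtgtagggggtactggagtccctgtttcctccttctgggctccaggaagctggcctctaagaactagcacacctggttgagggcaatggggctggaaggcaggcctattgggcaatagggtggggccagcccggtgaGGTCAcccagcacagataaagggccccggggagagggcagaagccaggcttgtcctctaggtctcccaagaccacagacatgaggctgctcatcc
Stra6, chr9:58128838-58129137: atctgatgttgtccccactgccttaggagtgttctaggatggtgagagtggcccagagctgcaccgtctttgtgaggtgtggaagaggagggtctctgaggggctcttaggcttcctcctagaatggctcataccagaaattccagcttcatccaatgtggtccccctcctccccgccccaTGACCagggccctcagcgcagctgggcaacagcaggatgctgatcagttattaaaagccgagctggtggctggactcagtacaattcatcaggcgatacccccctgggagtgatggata
Sprr2f and Sprr2b each have a TATA box that starts 29 bases before the gene, while the windows of Sprr2a3 and Sprr2a2, not shown, hold 0 TATA boxes and 0 half-sites. The Sprr2a2 and Sprr2a3 windows end within a stretch much like the one just before the TATA box of Sprr2b. Bases past these ends were not searched, so the windows do not show that these genes lack a TATA box. Sprr2f also has a half-site near the far end of the window, Ltf has 1 that starts 45 bases before the gene, and Prap1 has 2, at 63 and 55 bases, which face away from each other across 3 bases. The first start of Stra6 has 1 at 69 bases, while its other starts, not shown, have 0, and Sprr2b has 0. The whole palindrome, GGTCA and TGACC set 3 bases apart, contains the half-site and is in 23 of 32851 promoters of the RefSeq table and in none of those of the named genes. A half-site is in 11 of the 18 promoters found for the 20 genes named as higher, in 7 of the 25 found for the 20 named as lower, and in 40.5% of all promoters. Promoters were found for 16 and 15 of these genes. Ckmt1 and Slc39a8 of the higher genes and Meg3 of the lower ones have a half-site in more than 1 promoter. The counts of promoters are therefore not counts of genes. A TATA box is in 3 of 18, 2 of 25 and 13.6% of all. These counts describe the letters of 300 bases and name no site of binding.

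In the adult, 15% of the 3442 genes compared were at least 2-fold higher than in the newborn, and 817 of them, 23.7%, were at least 2-fold lower. The median log2 ratio of all genes compared was −0.20, and single genes are read against it. Counts of list members given below are read against the 15% higher and 23.7% lower of all genes. The difference in depth limits the lower side more: 88.9% of the lower genes had fewer than 10 adult counts, and 64 had 0, against 22.4% of the higher genes with fewer than 10 adult counts. Ratios of 8-fold or more made up 23.6% of the higher and 9.30% of the lower genes. With scaling by the median of gene ratios in place of the total, 18.2% were higher and 19.8% lower, so the share of higher genes among those at least 2-fold apart was 47.8%, against 38.8%. The median of all genes was then −0.0149, and each log2 ratio was higher by the same amount. The genes named next met a rule of level, spread over cells and separation of block 8 from both newborn blocks, and the first 20 in each direction are given.

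**Figure D1:**
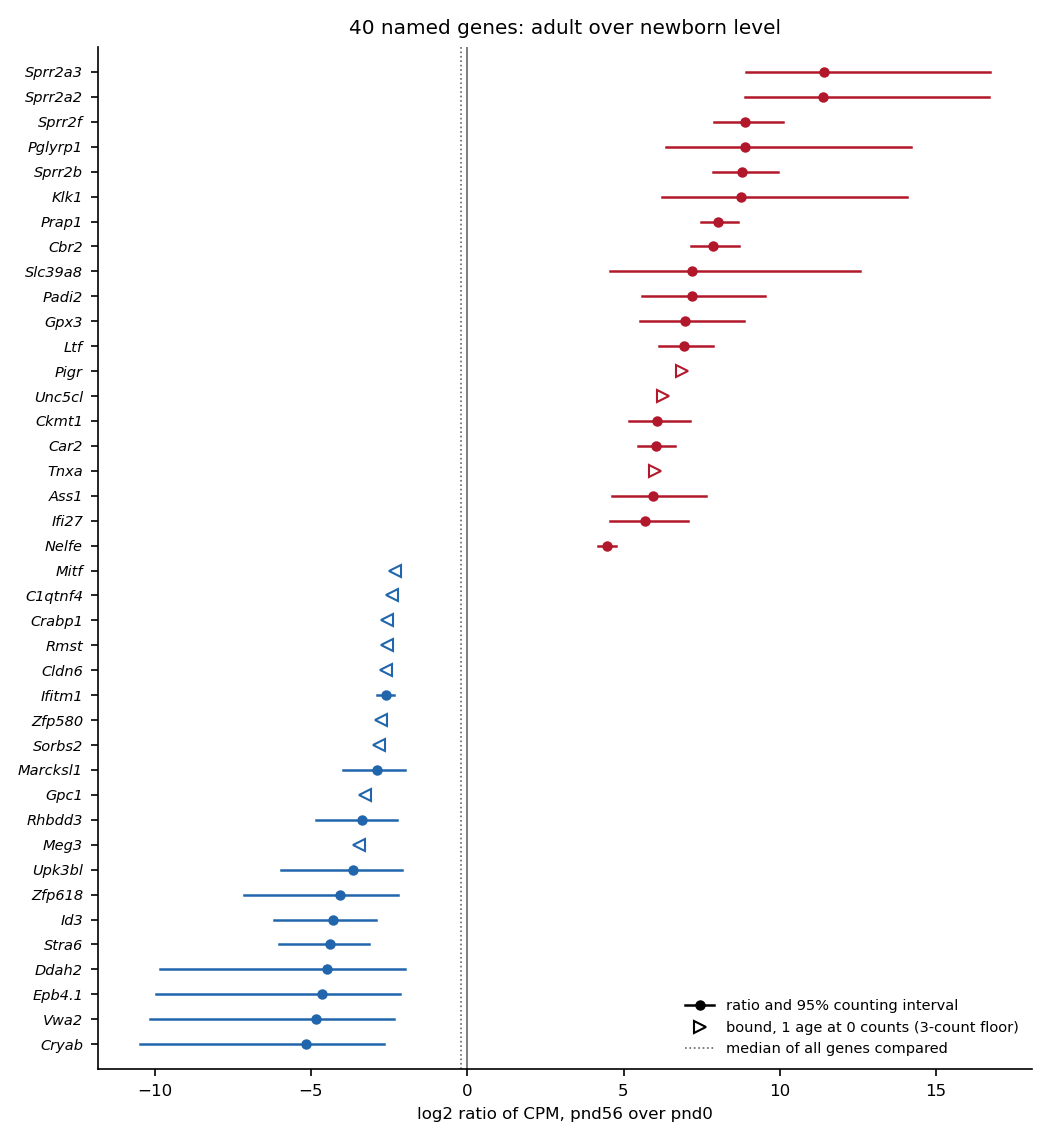
The log2 ratio of the summed CPM, pnd56 over pnd0, is plotted for the 20 higher genes (red) and the 20 lower genes (blue). Bars are exact 95% intervals of counting error, open triangles are bounds where 1 age had 0 counts, and the dotted line is the median of all 3442 genes, −0.20. Most ratios of the higher genes lie farther from 0 than those of the lower genes, many of which have adult counts at or under the floor of 3.

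The Sprr2 family led the higher genes. Small proline-rich proteins are cross-linked into the envelope of stratified epithelia, and in the uterus Sprr2 genes are known targets of oestrogen. Sprr2f stood at 14.4 CPM in newborn block 1, 14.7 CPM in block 2 and 6899 CPM in the adult. An adult cell held a median of 5 and at most 99 counts of Sprr2f, and the newborn cells a median of 0 and at most 4. The log2 ratio was 8.89 [7.90, 10.11]. Block 8 had to lie above both newborn blocks for a gene to be named. At cell level 82.2% of adult and 1.84% of newborn cells had a count. Sprr2b stood at 32.4, 0 and 7278 CPM in blocks 1, 2 and 8, a log2 ratio of 8.80 [7.86, 9.93], with 20.3% of its adult counts in 1 cell. Its newborn counts came from 2 cells of block 1.

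Sprr2a3 had 1 newborn count and stood at 4921 CPM in the adult, a log2 ratio of 11.40 [8.91, 16.71]. Sprr2a2 had 1 newborn count and stood at 4872 CPM, with a log2 ratio of 11.39 [8.90, 16.69]. These rows are not independent: in 25 of the 31 adult cells with a count of either, the counts were equal, and the RefSeq promoters of the genes share an unbroken run over 90.7% of their length. They are near-identical copies, and the sources used here do not say how the authors' counting split reads between them. Sprr2a1, a neighbour that overlaps Sprr2a2, had 10 adult and 0 newborn counts, 7 of the 10 in 1 cell. Sprr2g stood at 141.9 CPM in the newborn and 1246 CPM in the adult, a log2 ratio of 3.13 [2.69, 3.58]. Sprr2g was thus the member with the highest newborn count, 78, against at most 9 for the other 4 just given with a ratio.

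Secreted proteins of the lumen formed the next group. Prap1, a proline-rich acidic protein secreted by uterine epithelium, stood at 25.2, 69.8 and 12418 CPM in blocks 1, 2 and 8. Adult cells held a median of 11 counts of Prap1, and 1 cell held 24.8% of its adult counts. Of adult cells 86.7% had at least 1 count, against 5.52% of newborn cells. The log2 ratio was 8.04 [7.48, 8.66]. Prap1 overlaps Fuom on the opposite strand, and the sources used here do not say whether counting used strand. Fuom went the other way, at 589.6 CPM in the newborn and 269 CPM in the adult. Some genes that overlap on opposite strands shared nearly all counts. Gapdh and Iffo1 had 3941 and 3936 newborn counts and equal adult counts, so the counts of such pairs did not tell the strands apart. Other opposite-strand pairs, Prap1 and Fuom among them, had unlike counts. Whether Prap1 and Fuom shared reads was not tested.

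Ltf encodes lactoferrin, an iron-binding antimicrobial protein and a long-used marker of oestrogen action in the mouse uterus. Ltf stood at 18, 29.4 and 2882 CPM in blocks 1, 2 and 8, a log2 ratio of 6.93 [6.13, 7.86]. Ltf was counted in fewer adult cells than Prap1 or Sprr2f, 22 of 45, so its adult median per cell was 0 while its highest cell held 47 counts. Pigr, the receptor that carries antibodies of the IgA class across the epithelium, had 52 adult counts in 16 cells and 0 newborn counts, at least 116.3-fold higher. Pglyrp1, a peptidoglycan-binding antimicrobial protein, had 70 adult counts and 1 newborn count, with a log2 ratio of 8.88 [6.35, 14.20]. Klk1, a tissue kallikrein protease, had 64 and 1, a log2 ratio of 8.75 [6.22, 14.07], and 24.4% of adult cells had a count.

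The list of secreted and antimicrobial proteins had 12 members compared of 26 with a row, 11 of them at least 2-fold higher and 1 lower. Of all genes, 15% were higher and 23.7% lower. The list had a median log2 ratio of 6.44. A member could pass the minimum level by its adult level alone. The list was also written with earlier results of these data known, so its direction is no independent evidence. Spp1, the adhesion protein osteopontin, went from 1.82 to 1489.7 CPM, with 39.3% of its adult counts in 1 cell. Spink12, a protease inhibitor, had 0 newborn counts and stood at 2332 CPM in the adult, with 38.2% of its counts in 1 cell. Fcgbp, a mucus protein, went from 67.3 to 1465 CPM and was counted in 68.9% of adult and 12.3% of newborn cells. The surface mucins Muc4 and Muc1 had log2 ratios of 4.92 [3.91, 6.07] and 2.36 [2.06, 2.65], and Clu, the secreted chaperone clusterin, 3.07 [2.73, 3.42]. Wfdc18, of the whey acidic protein family, had 29 adult counts and 0 newborn counts. The single lower member was Wfdc2, of the same family, at 10732, 12606 and 4994 CPM in blocks 1, 2 and 8. Wfdc2 was still counted in 84.4% of adult cells, with a median of 9 counts against 36 in the newborn, and its log2 ratio was −1.22 [−1.37, −1.08].

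**Figure D2:**
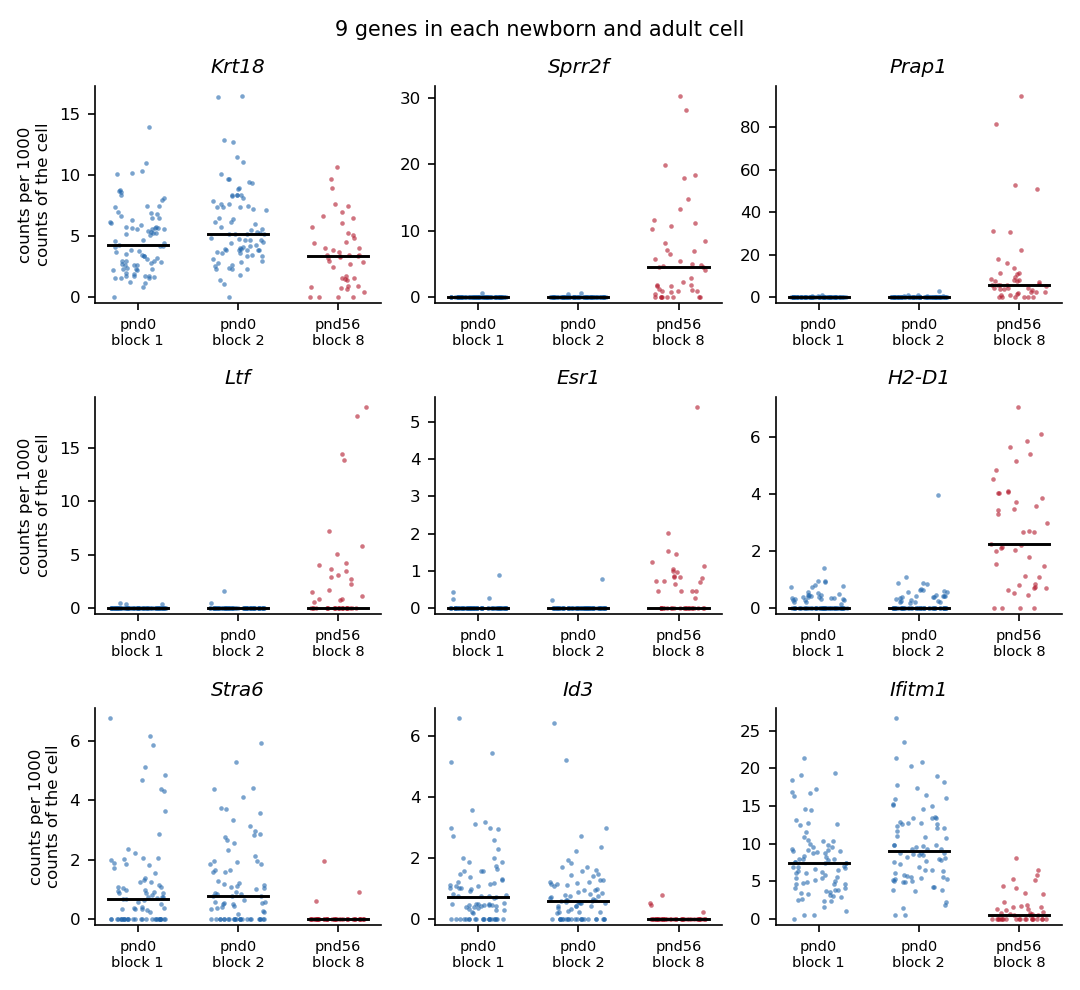
Each point is 1 cell, placed by title block (newborn blue, adult red), with counts of the gene per 1000 counts of that cell on a linear axis and the median as a black line. Krt18 covers a like range in the 3 blocks, Sprr2f and Prap1 lie near 0 in both newborn blocks, and Ltf and Esr1 have an adult median of 0 with part of the cells well above it. Stra6, Id3 and Ifitm1 run the other way.

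Enzymes and transporters made up most of the other higher genes. Cbr2, a carbonyl reductase, stood at 21.6, 36.8 and 6826 CPM in blocks 1, 2 and 8, a log2 ratio of 7.87 [7.16, 8.69], and was counted in 80% of adult and 3.68% of newborn cells. Car2, a carbonic anhydrase that turns over carbon dioxide and bicarbonate, was the most widely counted of the 20, in 88.9% of adult and 12.3% of newborn cells. Its levels were 43.2, 58.8 and 3321 CPM, a log2 ratio of 6.03 [5.46, 6.64]. Gpx3, a secreted glutathione peroxidase, went from 7.28 to 903.6 CPM. Padi2, which converts arginine in proteins to citrulline, went from 5.46 to 805.9 CPM. Ckmt1, the mitochondrial creatine kinase, had a log2 ratio of 6.07 [5.17, 7.11], and Ass1, an enzyme of arginine synthesis, 5.95 [4.62, 7.64]. Slc39a8, a zinc and manganese importer, had 22 adult counts and 1 newborn count, which gives a wide interval, 7.21 [4.58, 12.57].

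The remaining higher genes have roles that are less tied to secretion. Ifi27, an interferon-induced gene, went from 12.7 to 659.4 CPM. Unc5cl, a signalling protein with a death domain, had 34 adult and 0 newborn counts, at least 76.1-fold higher. The row Tnxa, at least 64.9-fold higher, is annotated as an unprocessed pseudogene that overlaps Cyp21a1. Nelfe, a subunit of a complex that pauses RNA polymerase, stood at 237.9, 271.97 and 5617 CPM. Nelfe ends 2 bases from Cfb, the complement factor B gene on the opposite strand, whose row had 18 adult and 34 newborn counts, so reads past the end of Cfb cannot be told apart from Nelfe.

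The lower genes were led by Stra6, the cell surface receptor that takes up vitamin A from its carrier in blood. Stra6 stood at 1182 and 1359.8 CPM in newborn blocks 1 and 2 and at 61.1 CPM in the adult. It was counted in 67.5% of newborn cells, with up to 30 counts in a cell, and in 3 of 45 adult cells, with at most 2. The log2 ratio was −4.38 [−6.01, −3.15]. Other genes of retinoid handling went the same way. Crabp1, which binds retinoic acid in the cytoplasm, had 120 newborn and 0 adult counts, at least 5.96-fold lower. Dhrs3, which turns retinaldehyde back to retinol, went from 944.4 to 207.6 CPM. Of 10 retinoid genes compared, 5 were at least 2-fold lower and 2 higher, against 23.7% and 15% of all genes. The list median was −0.86. The higher ones were Fabp5, a fatty acid binding protein that can also carry retinoic acid, at 2.16 [1.21, 3.08], and Adh1. All 10 adult counts of Adh1 lay in the adult cell with most collagen counts, and 9 of the 18 of Fabp5 lay in 1 cell. Without the cells rich in other-type markers, 0 of 8 retinoid genes compared were higher and 5 lower, with a median of −1.60.

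Growth factor signalling held a second group of lower genes. Id3, a target of BMP signalling that blocks basic helix-loop-helix factors, stood at 1096, 823 and 48.8 CPM in blocks 1, 2 and 8, a log2 ratio of −4.30 [−6.18, −2.93]. Newborn cells held a median of 2 and up to 31 counts of Id3, and no adult cell more than 1. Of the 12 Notch, Hedgehog, FGF and BMP genes compared, 7 were at least 2-fold lower and 2 higher, against 23.7% and 15% of all genes. The list median of −1.44 lay at −0.56 with no minimum level and farther below 0 under each other alternative. The FGF receptors Fgfr1 and Fgfr2 stood at 200.2 and 209.3 CPM in the newborn and had 1 adult count each, log2 ratios of −4.03 [−9.35, −1.53] and −4.10 [−9.42, −1.59]. Smo, the transducer of Hedgehog signals, Tgfbr1, a TGF-beta receptor, and Id1 had log2 ratios of −1.62, −1.79 and −1.70. Gpc1, a glypican that holds growth factors at the cell surface, stood at 351 CPM in the newborn and had 0 adult counts, at least 9.59-fold lower.

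The Wnt list had 7 members compared, 4 of them lower and 1 higher, against 23.7% and 15% of all genes. The list median of −1.65 ran from −1.89 to −0.25 over the alternatives. Wnt7a, a Wnt of uterine epithelium, went from 266.7 and 309 CPM in the newborn blocks to 73.3 CPM, a log2 ratio of −1.97 [−3.44, −0.82]. Wnt4 went the other way, with a log2 ratio of 1.32 [0.45, 2.13] without the cells rich in other-type markers. Wnt5a and the receptor Fzd10 had 1 adult count each, with 88 and 93 newborn counts. Ctnnb1, the beta-catenin gene that carries the signal, had a log2 ratio of −0.25 [−0.58, 0.07]. Among patterning factors, Tead2, a partner of the Hippo effector Yap, went from 1179 to 354 CPM, and Emx2, needed to form the reproductive tract, from 223.8 to 61.1 CPM. Pax2, another duct factor, had a log2 ratio of −0.11 [−0.82, 0.54]. In all, 3 of 7 patterning factors were lower and none higher, with a median of −0.89 that ran from −1.09 to −0.11.

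Some imprinted genes were at 0 in the adult cells. Meg3, a maternally expressed imprinted RNA, had 220 newborn counts in 70 cells and 0 adult counts, at least 10.9-fold lower. H19, also maternally expressed, stood at 320.3 CPM and had 0 adult counts, at least 8.74-fold lower, and Nnat, paternally expressed, had 80 newborn and 0 adult counts. H19 stood at 183.8 and 459 CPM in the newborn blocks. Of the 5 imprinted genes compared, the only higher one was Dcn, with 24 of its 29 adult counts in 1 cell, and Gnas had a log2 ratio of −0.71 [−1.03, −0.41]. Without the cells rich in other-type markers, Dcn had 3 adult and 6 newborn counts and lay under the level needed to be compared. Of the 5 imprinted genes compared then, 0 were higher and 3 lower, with a median of −1.61 against −1.99 with all cells. Cldn6, a tight junction claudin of embryonic epithelia, stood at 220.2 CPM in the newborn and had 0 adult counts, at least 6.01-fold lower. Ifitm1, an interferon-induced membrane protein, was the most abundant of the 20 by count. It stood at 7875, 9563 and 1441 CPM, with a median of 26 counts per newborn cell and 1 per adult cell, and a log2 ratio of −2.60 [−2.87, −2.33]. Cells overlap for this gene, since 55.6% of adult cells had a count.

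The other lower genes are of mixed roles. Marcksl1, an actin-linked membrane protein of developing tissues, went from 907.99 to 122.1 CPM, with counts in 86.5% and 13.3% of cells. Cryab, a small heat shock protein, stood at 434.9 CPM in the newborn and had 1 adult count, a log2 ratio of −5.15 [−10.46, −2.66]. Vwa2, a matrix protein of basement membranes, Epb4.1, a membrane skeleton protein, and Ddah2, an enzyme that breaks down methylated arginine, each had 1 adult count, with newborn levels of 347.5, 306 and 276.6 CPM. Zfp618, a zinc finger protein, had 2 adult counts and a newborn level of 411.2 CPM, and Upk3bl, a uroplakin-like gene, 3 and 462.2 CPM. Sorbs2, an adaptor of the actin skeleton, Zfp580, a zinc finger protein, Rmst, a long noncoding RNA, C1qtnf4, a secreted C1q-like protein, and Mitf, a transcription factor, had 0 adult counts. Their newborn levels were 260.2, 247.5, 218.4, 194.7 and 181.96 CPM, which gives bounds from 7.10-fold for Sorbs2 to 4.97-fold for Mitf. Rhbdd3 went from 762 to 73.3 CPM, and it overlaps Ewsr1 on the opposite strand.

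The 40 genes together parted the cells of the ages. An adult cell held a count for 2 to 17 of the 20 higher genes, with a median of 12, and a newborn cell for 0 to 6, with a median of 1. For the 20 lower genes the range was 0 to 6 with a median of 1 in the adult, and 3 to 18 with a median of 10 in the newborn. The higher genes were counted in greater number than the lower genes in 43 of 45 adult cells and in none of the newborn cells. These genes were chosen on this contrast, so the counts describe the cells and support nothing further. Depth differed between the ages, so cells of at least 1000 counts were also thinned to 1000, which left out 2 cells of each age. The medians were then 10 and 0 for the higher genes and 1 and 6 for the lower ones, adult first. Of all counts, the 20 higher genes took 6.26% in the adult and 0.0500% in the newborn. The lower genes took 0.186% and 1.71%.

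**Figure D3:**
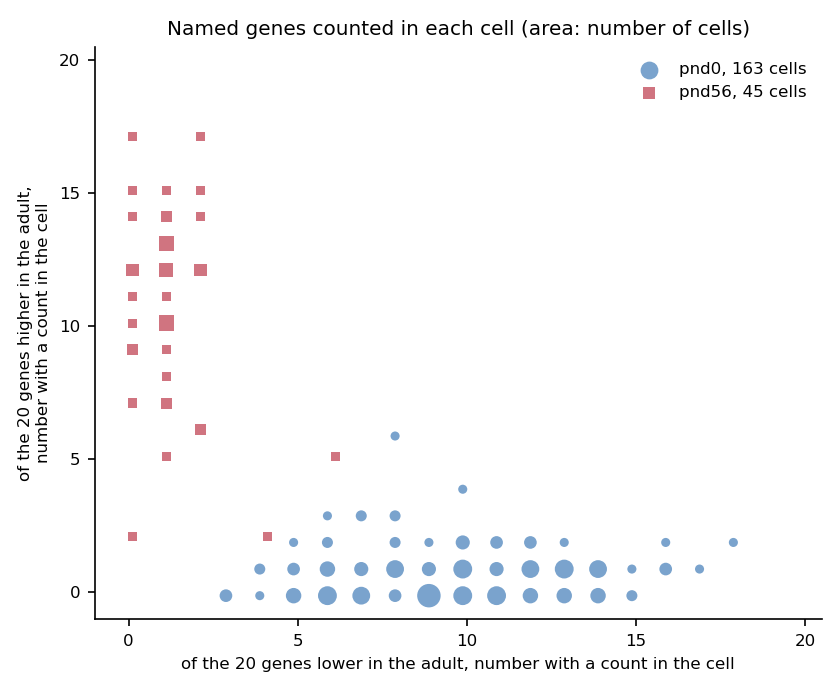
Each symbol is a set of cells placed by how many of the 20 lower genes (horizontal axis) and of the 20 higher genes (vertical axis) had a count in them, with its area growing with the number of cells. Newborn cells (blue circles) lie along the bottom, at no more than 6 higher genes, and adult cells (red squares) along the left, at no more than 6 lower genes.

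The genes differed in the age at which their level had moved toward that of the adult. On the log scale, none of the 20 higher genes lay past the midpoint between newborn and adult at pnd7, 5 did at pnd14 (Cbr2, Pglyrp1, Ltf, Padi2 and Ifi27) and 14 at pnd28. Their share of counts was 0.0500%, 0.119%, 0.295%, 1.17% and 6.26% from pnd0 to pnd56. Cbr2 was at 1474 CPM and Ltf at 474.5 CPM at pnd14, while Prap1 and Sprr2f were both still at 11.3 CPM. At pnd28 Prap1 stood at 727.3 and Sprr2f at 415.6 CPM, short of their adult levels of 12418 and 6899 CPM. Padi2 did not keep to an order, with 110.2 CPM at pnd14 and 41.6 CPM at pnd28.

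Of the 20 lower genes, 1 lay past the midpoint at pnd7 (Meg3), 6 at pnd14 and 16 at pnd28. Stra6 went from 1053 CPM at pnd7 to 70.6 CPM at pnd14, and Crabp1 from 341 to 11.3 CPM. Id3 was late, still at 613 CPM at pnd28. Upk3bl stood at 50.8 CPM at pnd14 and at 581.8 CPM at pnd28, above its newborn level of 462.2 CPM. Each of these ages is also 1 sample, and title blocks change with age.

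**Figure D4:**
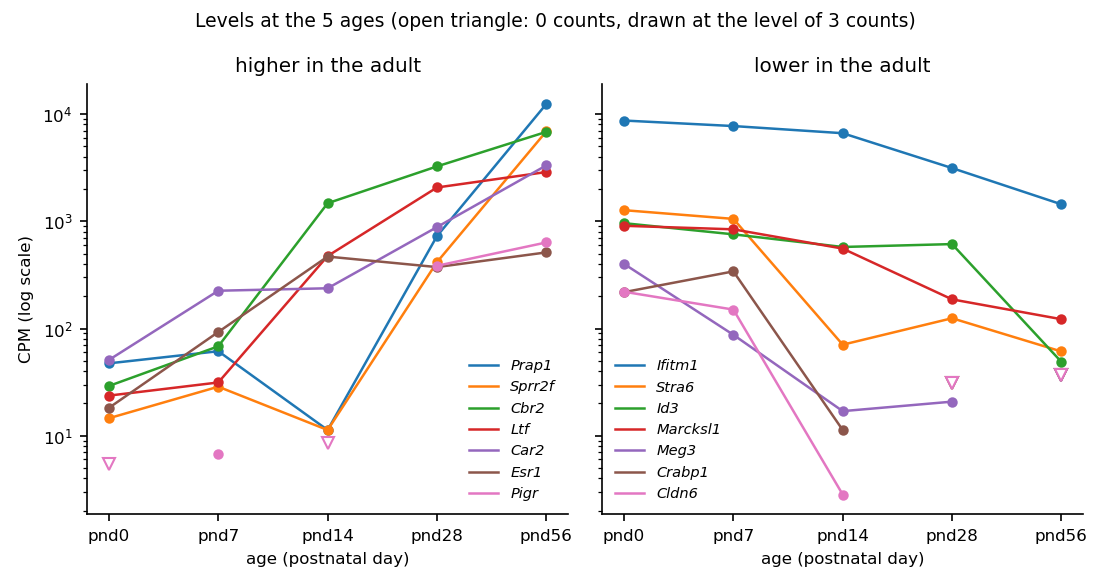
CPM on a log axis at pnd0, pnd7, pnd14, pnd28 and pnd56 for 7 genes higher (left) and 7 lower (right) in the adult, with open triangles at the level of 3 counts where a gene had 0. Cbr2, Ltf and Esr1 stand well above their newborn levels by pnd14, Prap1 and Sprr2f by pnd28, and Stra6, Crabp1 and Cldn6 are lower at pnd14 than at pnd7.

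Steroid hormone genes were next. Esr1, the main oestrogen receptor of the uterus, stood at 25.2, 11 and 512.9 CPM in blocks 1, 2 and 8, a log2 ratio of 4.82 [3.80, 5.98]. A count of Esr1 was found in 22 of 45 adult cells and 6 newborn cells, 3.68% of them, with at most 6 counts in a cell. Its level was 92.8 CPM at pnd7 and 468.9 CPM at pnd14, near the adult one. Pgr, the progesterone receptor, had 3 adult and 20 newborn counts and lay under the level needed to be compared. Of 14 oestrogen-responsive genes compared, all 14 were at least 2-fold higher, against 15% of all genes, with a median of 5.75. They were 14 of 24 members with a row, and a member could pass the minimum level by its adult level alone. Without the cells rich in other-type markers, Aqp5 of the same list had 0 adult and 34 newborn counts, under that level. This list shares Ltf, Klk1, Muc1, Muc4 and Clu with the secreted list. It was written with earlier results of these data known, so its direction is no independent evidence. The lowest of its ratios were those of Cdkn1a, a brake on the cell cycle, at 1.18 [0.54, 1.78], and Muc1. Of 5 progesterone-responsive genes compared, 4 were higher, with a median of 2.36. Among them Hsd11b2, which inactivates glucocorticoids, had 12 of its 15 adult counts in the cell rich in collagen counts. Without the cells rich in other-type markers, Hsd11b2 had 1 count at each age and was not compared, and 3 of the 4 progesterone-responsive genes compared were higher, with a median of 1.98. That median was 1.11, with 2 of 4 higher, where Fbln1 was counted among those markers. Of 7 steroid receptors and partners compared, 4 were higher and 2 lower, with a median of 1.25. Of the 6 compared without the cells rich in other-type markers, 2 were higher and 2 lower, with a median of 0.25. Over all alternatives the median of these receptors ran from 0 with no minimum level to 3.27 with a minimum of 100 CPM, which leaves 2 genes.

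Genes of antigen display and interferon differed by class. H2-D1, a class I molecule present on most cells, stood at 194.6, 191.1 and 2711 CPM, a log2 ratio of 3.81 [3.47, 4.16], with counts in 91.1% of adult and 35.6% of newborn cells. B2m, its light chain, had a log2 ratio of 2.63 [2.08, 3.17], and Psmb8, a subunit of the immunoproteasome, 2.80 [1.98, 3.62]. In all 5 of 7 class I and peptide loading genes were higher and none lower, against 15% and 23.7% of all genes. The 4 class II genes were higher as well, but in few cells. The adult cell named above held 52 of 62 counts of Cd74, the class II chaperone, 20 of 25 of H2-Ab1 and all 11 of H2-Eb1, with 0 counts of Ptprc and 2 of Tyrobp. Without the cells dropped by the other-type markers, Cd74 had 10 adult and 4 newborn counts, a log2 ratio of 4.31 [2.52, 6.44], and H2-Ab1 and H2-Eb1 had 0 at both ages. H2-D1 then stood at 3.77 [3.40, 4.14].

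The interferon list went both ways, with 7 of 11 members higher and 3 lower, against 15% and 23.7% of all genes. Ly6e, a membrane protein, went from 1108 to 5043 CPM, a log2 ratio of 2.19 [2.0, 2.37]. Stat2, which carries interferon signals, had a log2 ratio of 2.42 [1.5, 3.33]. Ifitm1, given above, and the transcription factor Irf1, at −1.57 [−2.26, −0.96], were lower. The third lower member was Irf9, with 3 adult counts and 48 newborn counts.

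The secretion and lysosome lists had more members higher than lower in the adult. Of all genes compared, 15% were higher and 23.7% lower. Of 19 genes of protein secretion in the endoplasmic reticulum and Golgi, 6 were higher and none lower, with a median of 0.65. Ssr4, a subunit of the translocon-associated complex, went from 440.3 to 1648 CPM, and Pdia6, which forms disulphide bonds, had a log2 ratio of 1.97 [1.45, 2.48]. Hspa5, the chaperone BiP, had one of 1.72 [1.35, 2.08] and Rpn2, of the glycosylating enzyme, 1.37 [1.05, 1.69]. Of 18 lysosomal genes, 8 were higher and 1 lower, with a median of 0.88. Grn, progranulin, went from 949.8 to 2625 CPM, and the proteases Ctsa and Ctsb had log2 ratios of 1.80 [1.46, 2.13] and 1.97 [1.18, 2.73].

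Lists of fluid, redox and lipid genes held members in both directions, beside 15% higher and 23.7% lower among all genes. For ion transport, Car12, a membrane carbonic anhydrase, had a log2 ratio of 5.23 [3.84, 6.96], while Scnn1a, the alpha subunit of the epithelial sodium channel, went from 558.6 to 85.5 CPM. Fxyd3, a modulator of the sodium pump, went from 136.5 to 1697 CPM. It shares nearly all counts with Lgi4, which overlaps it on the opposite strand, with equal counts in all 35 adult cells that had either. For redox, Gsto1, a glutathione transferase, went from 534.97 to 4408 CPM, a log2 ratio of 3.04 [2.82, 3.27], and Gpx1, the cytosolic glutathione peroxidase, had one of 2.24 [2.08, 2.41]. Mt2, a metallothionein that binds zinc and copper, was lower, at −1.87 [−2.30, −1.47]. Of 20 redox genes 6 were higher and 2 lower, with a median of 0.25. Of 14 genes of sterol and fatty acid synthesis 4 were higher and 1 lower, with a median of 0.26. Hmgcs1 and Sqle, of early steps to cholesterol, had log2 ratios of −0.34 [−0.93, 0.21] and 0.30 [−0.91, 1.34].

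Epithelial identity and matrix genes were next. Krt18 stood at 4595, 5708 and 3602 CPM, a log2 ratio of −0.51 [−0.69, −0.34], and Cdh1, the cadherin of epithelial junctions, had one of 0.73 [0.16, 1.26]. Of 12 identity genes 4 were higher and none lower: Epcam, Krt7, the claudin gene Cldn7 and Pkp3, of desmosomes, at 1.03, 1.07, 1.25 and 1.30. Among 18 matrix and adhesion genes, 7 were higher and 3 lower, against 15% and 23.7% of all genes. Mmp7, a matrix-cutting protease of gland-forming epithelia, had a log2 ratio of 4.12 [3.11, 5.21], and Lama3, a laminin chain, 3.65 [2.32, 5.10]. Lamb2, another laminin chain, was lower, at −2.88 [−4.20, −1.82].

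Chromatin and cell division genes had shares of lower members read against the 23.7% of all genes. Of 16 genes of DNA methylation and chromatin, 5 were lower and none higher, a share near that of all genes, with a median of −0.56. Dnmt3a, which lays down new DNA methylation, stood at 331.2 CPM in the newborn, with counts in 79 cells, and had 2 adult counts, a log2 ratio of −3.76 [−6.82, −1.89]. Ezh2, the Polycomb methyltransferase, had a log2 ratio of −2.02 [−3.92, −0.62]. Hmga1, a chromatin protein of growing tissue, is not of these 16 but the 1 member compared of the list of fetal growth genes. Its log2 ratio was −1.86 [−2.83, −1.04]. Of 16 S phase genes 3 were lower, and of 12 G2 and M phase genes 3 were lower, with none higher in either list, again near the share of all genes. Their medians were −0.53 and −0.48. That of the S phase genes changed sign with the Krt18 and marker filter that counts Fbln1 and with thinned cells, and that of the G2 and M phase genes with the same filter and with per-cell means. Pcna, the replication clamp, had a log2 ratio of −0.67 [−1.48, 0.05], and Top2a, of mitotic chromosomes, −0.58 [−2.08, 0.63].

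Lists of the basic cell machinery had medians within 2-fold of no difference. Of 17 translation factors compared, none was 2-fold higher or lower, and the median was 0.05. Of 16 nucleolar genes 1 was higher, and of 28 nuclear-encoded respiratory chain genes 3 were higher and 1 lower, with medians of 0.02 and 0.14. Of 32 splicing genes 9 were lower and 1 higher, with a median of −0.40. Hnrnpa1, a packaging protein of nuclear RNA, went from 1248 to 549.5 CPM, a log2 ratio of −1.18 [−1.65, −0.75]. Rbm3, a cold-inducible RNA-binding protein, had one of −1.17 [−1.70, −0.67]. The share of splicing genes that were lower is near the 23.7% of all genes.

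**Figure D5:**
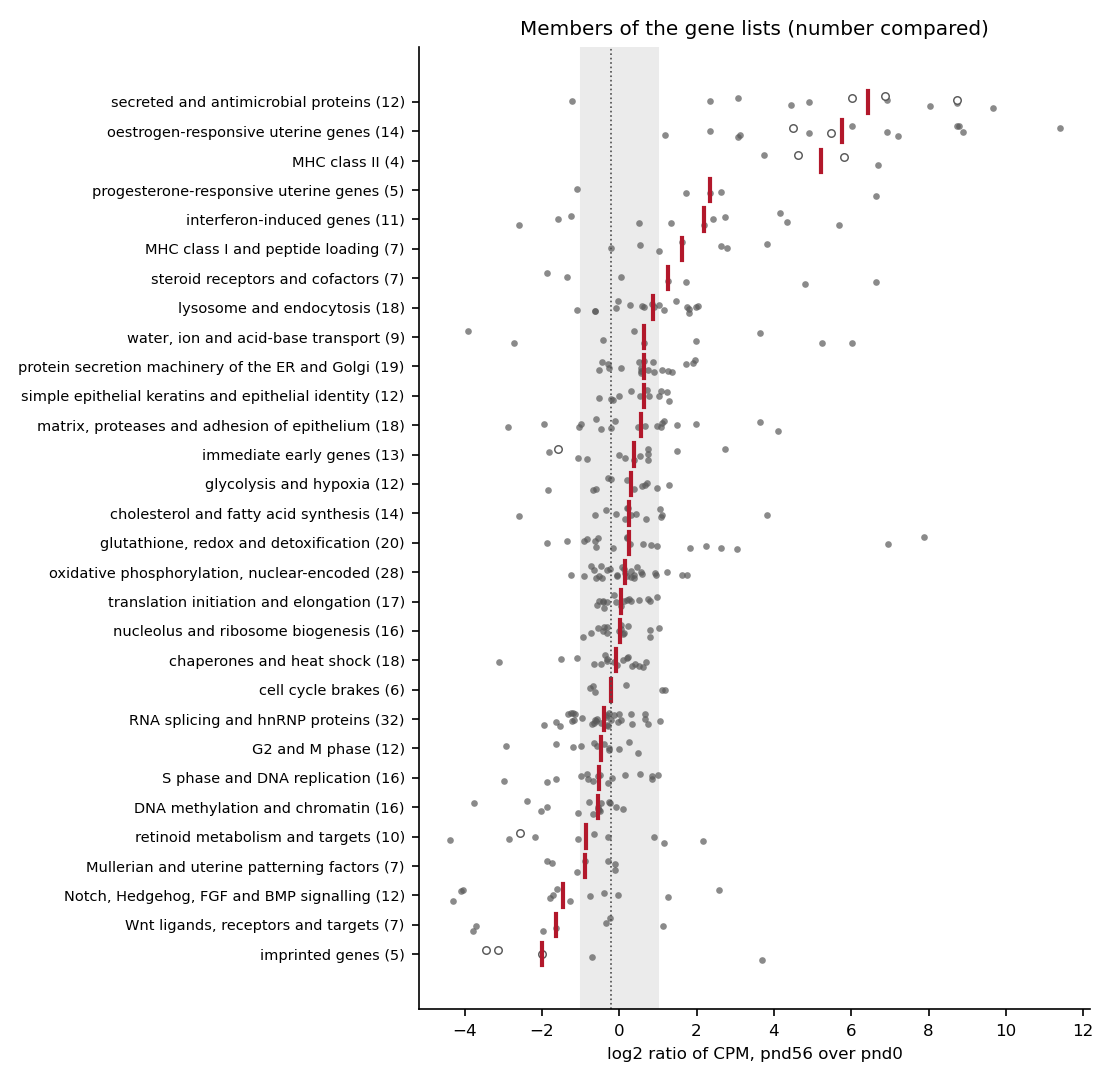
Each point is a member of the named gene list that was compared, placed by its log2 ratio, pnd56 over pnd0, with open points for bounds and the list median in red. The grey band spans ratios under 2-fold and the dotted line is the median of all genes, −0.20. The medians of the secreted and oestrogen-responsive lists lie to the right of the band, those of the Wnt, the Notch, Hedgehog, FGF and BMP and the imprinted lists to its left, and those of the translation, nucleolar and splicing lists within it, while the list of fetal growth genes, with 1 member compared, is left out. With no minimum level the Wnt, the Notch, Hedgehog, FGF and BMP and the imprinted medians, at −0.34, −0.56 and −0.71, lie inside the band.

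Immediate early genes, which can respond to handling of tissue, did not move one way. Fos stood at 3654, 2918 and 4310.4 CPM, a log2 ratio of 0.39 [0.22, 0.56], and Egr1 had one of −1.06 [−1.36, −0.78]. Of 13 members 2 were higher and 3 lower, near the 15% and 23.7% of all genes, with a median of 0.39. The part of handling in any result was not tested.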

How the data were processed

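CEL-seq libraries of single CD326-sorted uterine cells were summed by age. The deposited table holds counts per gene and cell (12479 rows), made by the authors with a workflow that names TopHat, Cuffnorm and build mm9, per the submitters' processing notes. The sources used here do not say whether molecular tags were collapsed or how shared reads were split. No doublet caller was run, and of 960 sorted cells 714 are in the table. Age came from the labels. Cells were filtered on Hba-a1 and Upk3a as stated. Counts were summed per age and divided by the total of all rows (CPM), and ratios carry exact conditional binomial 95% intervals (Clopper-Pearson). Each age is 1 sample, so no test was run. Genes compared had a mean of at least 50 CPM. Named genes also needed 20 counts and 20% of cells at the higher age, no cell with over 33.3% of that age's counts, and block 8 beyond both newborn blocks. They were ranked by the interval bound nearest no difference, and 20 were taken per direction. The members and gene lists were chosen with earlier results of these data known. Gene overlaps came from GENCODE M21, where 12107 row names matched. Ratios were checked on simulated counts. Python 3.11.15, NumPy 2.4.6, SciPy 1.17.1, pandas 2.3.3 and matplotlib 3.10.9 were used. Newborn and adult totals, and the worth of 1 count, are given in the report. A few members of the gene lists are not reported here. Alternatives covered scaling, cell filters, depth and the level minimum.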

Additional observations from a re-analysis of the deposited data

How the results depend on the processing

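No paired analysis was possible because the labels give no replicate numbers. Each age is 1 sample, adult depth limits lower genes near the floor of 3 counts, and age, title block and depth cannot be told apart. The ratios of the 40 named genes kept their sign under every alternative in which they were compared, while 59 recomputed ratios lay outside the 95% interval given for the gene. The 40 genes were picked on this same contrast, and a bound that would point the other way was set to 0. Their kept signs are therefore no independent check. Sprr2a2 went to 7.79 and the bound of Pigr to 5.13 with thinned cells, and the bound of Meg3 to −2.12 with the Krt18 and marker filter. Shares are of the genes compared, and shares at least 2-fold higher and lower were 15% and 23.7% of 3442. They were 15.3% and 17.5% of 2045 with a minimum of 100 CPM (312 and 357 genes), 11.6% and 18.1% of 7797 with no minimum, and 17.4% and 12.02% of 1007 with a minimum of 200 CPM. The last was chosen after seeing the data, as were setting Fbln1 aside and a minimum of 20 counts, with 28.1% of 4647 lower (1306 genes). These minimums change which genes are compared. The median of all genes was 0.0316 at 200 CPM. The other alternatives kept both numbers of genes within 1.5 times. Dropping cells without Krt18 or with other-type markers, Fbln1 among them, left 23 adult cells, with 21.5% higher and 20.52% lower. Leaving out newborn block 1 gave 15.4% higher and 24.96% lower, and leaving out block 2 gave 16.1% and 25.3%.

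Of recomputed list medians 24 changed sign, and 26 others, in 9 lists, lay outside the list's median interval, among them the imprinted (−2.18 to −0.71) and interferon (0.91 to 2.37) lists. The cause was not tested. Chaperones were at 0.0924 with median-of-ratios scaling, 0.0601 without newborn block 2 and 0.0207 at 100 CPM. S phase genes were at 0.25 with the Krt18 and marker filter and 0.17 with thinned cells, and G2 and M genes at 0.19 with that filter and 0.10 by per-cell means. Sterol and fatty acid genes were at −0.27 with that filter, −0.10 with thinned cells and −0.0849 at 200 CPM. Cell cycle brakes were at 0.0345 with thinned cells and 0.19 at both 100 and 200 CPM. Translation factors were at −0.19 with thinned cells, −0.13 without newborn block 1, −0.0376 when Fbln1 was set aside and −0.10 at 20 counts. Nucleolar genes were at −0.0754 by per-cell means, −0.18 without block 1, −0.15 when Fbln1 was set aside and −0.22 at 20 counts. Matrix genes were at −0.17 with no minimum and at 20 counts, and glycolysis at −0.24 at 200 CPM.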
